A study of Mus musculus with 6 samples.

Results

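The muscle acetylcholine receptor subunits and the genes that place the receptor at the neuromuscular junction were followed in bulk RNA-seq of newborn calvaria. They are the 9 genes *Chrna1*, *Chrnb1*, *Chrnd*, *Chrng*, *Chrne*, *Musk*, *Dok7*, *Rapsn* and *Ncam1*, taken by gene symbol from the 44556 genes counted. All 9 were found and all 9 passed the filter on low counts, which left 15600 genes for testing. Parietal bone was collected from newborn C57BL/6 mice, with 3 libraries from OsxCre animals and 3 libraries labelled OsxCre;Stat3fl/fl from their littermates. Both genotypes carried the Cre transgene under control of *Osx* (*Sp7*), a promoter used to reach cells of the osteoblast lineage rather than muscle. Only the second genotype carried loxP-flanked *Stat3* on both alleles. The study asked how loss of *Stat3* in osteoblasts changed gene expression in this bone. The junction genes are known from muscle and nerve, and which cells gave their reads here was not tested.

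At the neuromuscular junction the motor axon releases acetylcholine onto a ligand-gated channel in the muscle membrane. The fetal channel is built from alpha, beta, delta and gamma subunits (*Chrna1*, *Chrnb1*, *Chrnd*, *Chrng*), and in the adult channel the epsilon subunit (*Chrne*) takes the place of gamma after birth in rodents. Agrin from the nerve binds LRP4 and activates the kinase MuSK (*Musk*), whose adaptor is DOK7 (*Dok7*), and rapsyn (*Rapsn*) then anchors the receptors in clusters. NCAM1 (*Ncam1*) is an adhesion molecule of nerve and of immature or denervated muscle fibres, and it is also made by many other cells of the embryo and newborn.

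The libraries held between 8193651 and 12080044 counts, and every OsxCre library was larger than every library labelled OsxCre;Stat3fl/fl. Values below are therefore CPM, counts taken relative to library sizes that were scaled by TMM, on which 3 counts, taken as the floor, equal between 0.251 and 0.367 CPM. *Stat3* itself was at 149, 134 and 141 CPM in OsxCre, against 152, 154 and 155 CPM under the label OsxCre;Stat3fl/fl (log2 fold change 0.12, adjusted p = 0.442), so its total count did not check the genotype labels. A count over the whole gene includes reads outside the deleted exons and reads from cells without Cre. *Xist* had between 7333 and 12392 counts in each of the 6 libraries and the Y-linked *Ddx3y* and *Kdm5d* had 0, whereas the study describes its sequenced newborns as male. The tissue labelled parietal bone had the defining osteoblast gene *Col1a1* at 13020 and 11827 CPM in OsxCre and OsxCre;Stat3fl/fl means, and the muscle genes *Acta1*, *Ckm* and *Ttn* at OsxCre means of 11285, 4152 and 1808 CPM. The 10 osteoblast markers summed to between 26259 and 34805 CPM in OsxCre and between 23643 and 29887 CPM in OsxCre;Stat3fl/fl, with 1 called, *Ibsp*, which was lower. In such bulk tissue, a change in the number of muscle cells and a change in RNA per muscle cell cannot be told apart.

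The upstream sequences of the alpha, gamma and epsilon genes are shown because they carry the letters through which muscle regulators and synapse-restricted regulators are known to act on receptor genes. Each is the 250 bases before an annotated start, 5′ to 3′ on the gene's strand, from RefSeq on GRCm38.p6. The *Chrne* window, from 70619195, reaches into the gene span given below, whose upper coordinate is 70619213. Capitals mark the E-box CANNTG, to which MyoD-family factors bind, and CCGGAA, the core of the N-box, to which GABP binds.

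Chrna1 (chr2:73580339-73580588, minus strand): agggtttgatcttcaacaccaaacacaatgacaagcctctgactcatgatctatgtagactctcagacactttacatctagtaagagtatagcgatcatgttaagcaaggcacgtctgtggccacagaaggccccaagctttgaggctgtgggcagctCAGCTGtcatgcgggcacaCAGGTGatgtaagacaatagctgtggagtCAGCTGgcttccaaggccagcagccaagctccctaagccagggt
Chrng (chr1:87205561-87205810, plus strand): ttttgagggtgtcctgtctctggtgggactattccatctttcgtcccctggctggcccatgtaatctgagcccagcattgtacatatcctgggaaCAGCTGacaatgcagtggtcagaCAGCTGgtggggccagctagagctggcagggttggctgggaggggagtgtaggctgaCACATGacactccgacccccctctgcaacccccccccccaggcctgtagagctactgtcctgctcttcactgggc
Chrne (chr11:70619195-70619444, minus strand): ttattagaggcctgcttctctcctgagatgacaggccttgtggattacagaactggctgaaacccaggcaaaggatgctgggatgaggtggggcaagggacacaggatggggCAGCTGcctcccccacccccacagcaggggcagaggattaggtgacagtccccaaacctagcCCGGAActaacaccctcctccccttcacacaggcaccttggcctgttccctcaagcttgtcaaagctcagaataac

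The *Chrna1* and *Chrng* windows each hold 3 E-boxes, of which 2 read CAGCTG, and the *Chrne* window holds 1 CAGCTG and 1 CCGGAA, the latter between bases -76 and -71 from the start. The searches covered both strands, and CAGCTG is contained in CANNTG. Of 32851 windows of the same length upstream of mouse genes, 66.2% hold CANNTG, 13.0% hold CAGCTG and 12.0% hold CCGGAA. The windows of *Chrnb1* and *Musk* hold 3 E-boxes each, and of the starts listed for *Dok7* one window holds 1 and the other none. These windows too reach into the gene spans given below. The *Chrnb1* window starts at 69795938, and most of the *Musk* window (58285712 to 58285961) lies inside *Musk*. Of the *Dok7* windows, that with 1 (35056516 to 35056765) lies mostly inside the gene. The window with none (35056822 to 35057071) lies wholly inside it. TTCNNNGAA, the core letters of a STAT site, is in none of the 7 windows of these 6 genes and in 7.02% of all windows. *Chrnd*, *Rapsn* and *Ncam1* had no entry. These matches describe letters only.

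*Chrna1*, the acetylcholine-binding alpha subunit on chromosome 2 (73563281 to 73580338, GRCm38.p6), was at a like level in both genotypes. It had 86.2, 83.4 and 70.7 CPM in OsxCre, against 72.1, 104 and 70.9 CPM under the label OsxCre;Stat3fl/fl. The second of the latter was the highest of all 6, and the genotypes overlapped. The means were 80.1 ± 8.23 and 82.4 ± 18.9 CPM (SD, n = 3 each), and the genotypes differed by 0.04 ± 0.16 on the log2 scale (± standard error, adjusted p = 0.935, edgeR's quasi-likelihood test with Benjamini-Hochberg adjustment over all 15600 genes, as for every adjusted p of a gene below). The sign turned to -0.02 when libraries were scaled by their totals alone. The annotated genes Gm30940 and Gm13778 overlap *Chrna1* and *Rapsn* and have no row of their own in the count tables used here, and without strand their reads cannot be told apart from those of *Chrna1* and *Rapsn*.

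*Chrnb1*, the beta subunit on chromosome 11 (69784036 to 69795966), was read at 63.0, 55.7 and 62.9 CPM in OsxCre and at 71.3, 78.7 and 58.3 CPM in OsxCre;Stat3fl/fl. The genotypes overlapped through the third library of the latter. The difference on the log2 scale was 0.20 ± 0.12 (adjusted p = 0.457). Leaving out single libraries moved it between 0.105 and 0.31.

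*Chrnd*, the delta subunit on chromosome 1 (87190597 to 87200070), differed most among the 9 genes. The OsxCre libraries had 37.8, 46.3 and 42.3 CPM, against 23.1, 33.3 and 15.3 CPM under the label OsxCre;Stat3fl/fl. All 3 of the latter lay below all 3 of the former, although they spread more widely. The means were 42.1 ± 4.25 and 23.9 ± 9.01 CPM, so the level in OsxCre;Stat3fl/fl was 0.567 of that in OsxCre. The difference of -0.82 ± 0.24 on the log2 scale had an unadjusted p of 0.0102 and an adjusted p of 0.157, and so did not pass. DESeq2's Wald test gave the same change an adjusted p of 0.0247 and limma-voom 0.125, and edgeR without the filter on low counts gave 0.048. Leaving out single libraries moved the log2 fold change between -1.13 and -0.58, and over all alternatives its adjusted p lay between 0.0117 and 0.320.

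*Chrng*, the fetal gamma subunit, lies 5.74 kb beyond the end of *Chrnd* (chromosome 1, 87205811 to 87211835). Its 3 OsxCre libraries stood close together at 28.9, 34.5 and 34.4 CPM. In OsxCre;Stat3fl/fl it had 23.7, 40.0 and 18.2 CPM, which holds both the highest and the lowest of the 6 values. On the log2 scale the genotypes differed by -0.26 ± 0.26 (adjusted p = 0.678). It shrank to -0.03 or grew to -0.63 with a single library left out.

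*Chrne*, the adult epsilon subunit on chromosome 11 (70614883 to 70619213), was the least counted of the 9 genes, with 49, 31 and 42 counts in OsxCre and 22, 24 and 16 counts in OsxCre;Stat3fl/fl. As CPM these were 4.65, 3.07 and 3.52 against 2.63, 2.93 and 1.87. The genotypes did not overlap, but the highest of the lower group and the lowest of the upper group lay next to each other. On the log2 scale they differed by -0.59 ± 0.28 (unadjusted p = 0.0664, adjusted p = 0.341). The gene 4930544D05Rik, which lies within *Chrne*, had 1 count over all 6 libraries.

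*Musk*, the receptor kinase through which agrin acts (chromosome 4, 58285729 to 58377848), had 16.0, 12.5 and 10.5 CPM in OsxCre and 11.5, 20.05 and 17.96 CPM in OsxCre;Stat3fl/fl. The groups overlapped, with the first library of the latter among the OsxCre values. Their log2 difference was 0.35 ± 0.24 (adjusted p = 0.524). With single libraries left out it ranged from 0.19 to 0.55.

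*Dok7*, the adaptor that activates MuSK from inside the fibre (chromosome 5, 35056571 to 35087839), was the only one of the 9 with all 3 OsxCre;Stat3fl/fl libraries above all 3 OsxCre libraries. The values were 19.6, 17.3 and 20.8 CPM against 21.9, 29.95 and 26.01 CPM. The means of 19.2 ± 1.76 and 25.96 ± 4.02 CPM gave 0.43 ± 0.14 on the log2 scale, with an unadjusted p of 0.0156 and an adjusted p of 0.186.

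*Rapsn*, which encodes the scaffold that holds receptors in clusters (chromosome 2, 91035472 to 91045729), leaned the other way. It had 20.2, 19.5 and 23.1 CPM in OsxCre and 16.2, 19.1 and 15.0 CPM in OsxCre;Stat3fl/fl. The genotypes did not overlap, with only a small gap between the second libraries of each. A log2 difference of -0.32 ± 0.13 resulted (unadjusted p = 0.0412, adjusted p = 0.280).

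*Ncam1*, the adhesion molecule on chromosome 9 (49502129 to 49799393), was the most counted of the 9 genes. It had 128, 160 and 109 CPM in OsxCre and 179, 149 and 147 CPM in OsxCre;Stat3fl/fl. The second OsxCre library exceeded 2 of the 3 libraries labelled OsxCre;Stat3fl/fl. The genotypes differed by 0.26 ± 0.15 on the log2 scale (adjusted p = 0.436). This difference ran from 0.135 to 0.412 with single libraries left out.

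**Figure D1:**
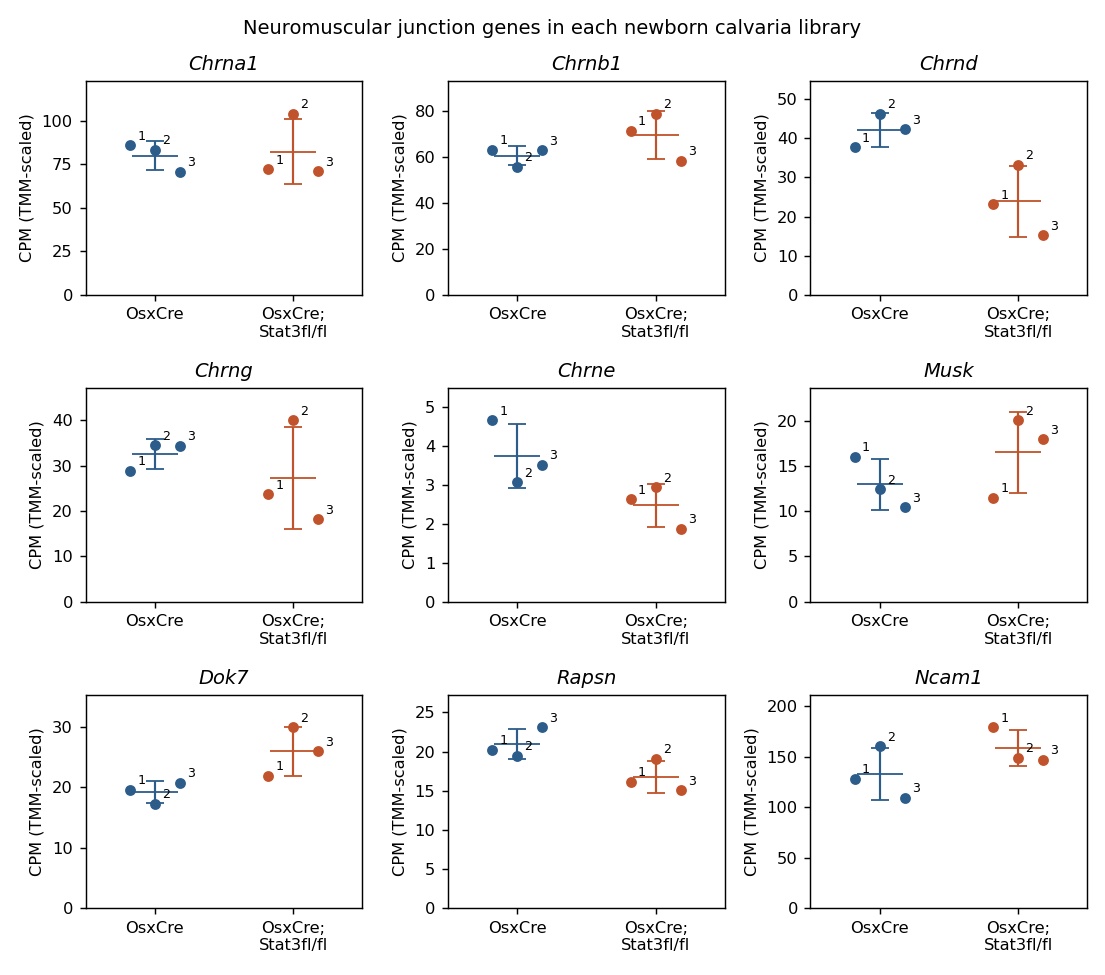
CPM (TMM-scaled, vertical axes from 0) of each of the 9 genes in the 3 OsxCre libraries (blue) and the 3 libraries labelled OsxCre;Stat3fl/fl (orange), numbered by replicate, with the mean and SD as bars. The genotypes do not overlap for *Chrnd*, *Chrne* and *Rapsn*, which are lower in OsxCre;Stat3fl/fl, and for *Dok7*, which is higher, while the other 5 genes overlap.

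Across the 9 genes, 0 passed an adjusted p of 0.05 in edgeR's test, which called 1.26% of all genes tested (0.481% lower and 0.776% higher). At an unadjusted p under 0.05 there were 3, *Chrnd* and *Rapsn* lower and *Dok7* higher, beside 8.34% lower and 8.03% higher over all genes. DESeq2 called 1 of the 9, *Chrnd*, beside 1.51% of the genes it tested called lower, and limma-voom called 0 (3 at an unadjusted p under 0.05), beside 0.397% lower over all genes. Without the filter edgeR called *Chrnd* alone, beside 0.635% of genes lower, and with no scaling for library size it called 3 lower, *Chrnd*, *Chrne* and *Rapsn*, beside 34.9%. The 3 genes with all OsxCre;Stat3fl/fl libraries below all OsxCre libraries stand beside 12.2% of all genes, and the 1 gene above beside 10.8%. The fold changes were negative for 4 of the 9, beside 50.7% of all genes, and positive for 5, with a median of 0.04, against -0.004 over all genes tested.

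Among the 3 libraries labelled OsxCre;Stat3fl/fl, the second was the highest for 8 of the 9 genes and the third the lowest for 7. *Ncam1* was the exception to the first, being highest in the first library. In OsxCre no library stood out in this way, since the first was the highest for 4 genes, the second for 3 and the third for 2.

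Levels were compared between genes per kilobase of merged exon (GENCODE, NCBIM37). In OsxCre the order ran from *Chrnb1* at 23.9 ± 1.66 CPM per kb through *Chrna1* at 18.3 ± 1.88, *Chrng* at 17.0 ± 1.68, *Chrnd* at 13.9 ± 1.4, *Ncam1* at 13.1 ± 2.55, *Rapsn* at 11.6 ± 1.06, *Dok7* at 4.55 ± 0.417 and *Musk* at 3.42 ± 0.743 to *Chrne* at 2.22 ± 0.483 (SD, n = 3). The libraries of neighbours were fully apart only between *Chrnb1* and *Chrna1*, between *Rapsn* and *Dok7*, and, by a small margin, between *Musk* and *Chrne*. The 4 fetal receptor subunits thus stood at a like order of magnitude, and the kinase and its adaptor well below them. In OsxCre;Stat3fl/fl, *Chrnd* stood behind *Rapsn* in the order, at 7.86 and 9.30 CPM per kb, and *Musk* and *Chrne*, at 4.34 and 1.47 CPM per kb, were the only neighbours fully apart. Per kilobase of the longest coding sequence, a choice made after the data were seen, *Chrna1* stood first in OsxCre at 58.3 CPM per kb and *Chrnb1* second at 40.2. On that length *Ncam1* came next at 39.96, *Chrnd* at 25.7 stood above *Chrng* at 20.9, and *Chrne* stayed last at 2.52.

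The balance of fetal to adult receptor was read from *Chrng* and *Chrne*, since library size cancels in their ratio. In both genotypes the fetal subunit predominated in every library. The 3 OsxCre libraries held 304, 349 and 411 *Chrng* counts to 49, 31 and 42 *Chrne* counts, which are 6.20, 11.3 and 9.79 to 1. The libraries labelled OsxCre;Stat3fl/fl held 198, 327 and 156 to 22, 24 and 16, which are 9, 13.6 and 9.75 to 1. *Chrng* thus made up 86.1% (95% Clopper-Pearson interval 82.1 to 89.6), 91.8% (88.6 to 94.4) and 90.7% (87.7 to 93.2) of the pair in OsxCre. The share was 90.0% (85.3 to 93.6), 93.2% (90.0 to 95.6) and 90.7% (85.3 to 94.6) in OsxCre;Stat3fl/fl. These intervals cover counting error only, and those of the 2 genotypes overlap, with the first OsxCre library the lowest and the second OsxCre;Stat3fl/fl library the highest.

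The mean log2 ratio of *Chrng* to *Chrne* was 3.12 ± 0.45 in OsxCre and 3.38 ± 0.32 in OsxCre;Stat3fl/fl (SD, n = 3 each). The difference of 0.25 (standard error 0.32) did not exceed the spread between libraries (exact permutation test, two-sided, p = 0.6, where 3 libraries against 3 cannot go below 0.1). It lay between 0.002 and 0.43 with single libraries left out. Per merged exon length the summed counts gave 7.67 *Chrng* to 1 *Chrne* in OsxCre and 9.66 to 1 in OsxCre;Stat3fl/fl. In both genotypes the fetal subunit therefore led the adult one by several-fold on every scale used, and a shift in this balance was not detectable with these libraries.

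**Figure D2:**
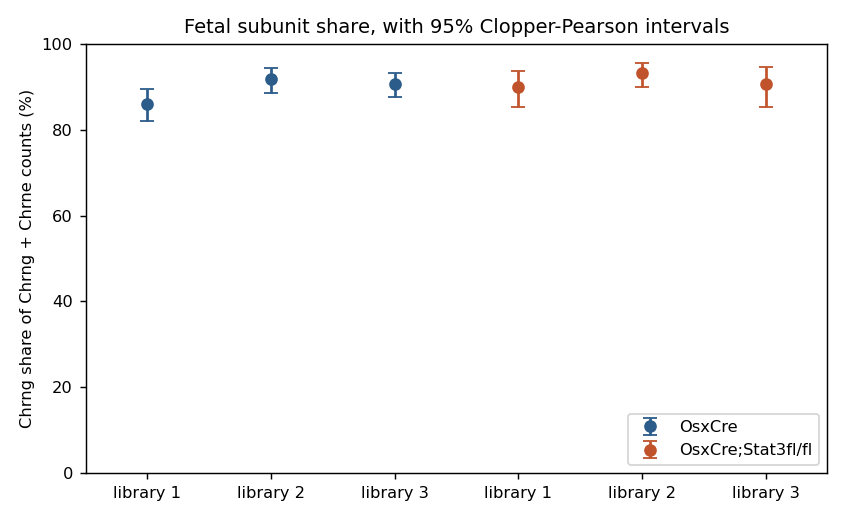
Share of *Chrng* in the summed *Chrng* and *Chrne* counts (percent, vertical axis from 0 to 100) in each library, with 95% Clopper-Pearson intervals. The 6 shares lie between 86.1% and 93.2% and the genotypes overlap.

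The other ratios within the receptor were formed after the counts had been seen, which makes 8 ratios with the one above. *Chrnd* was lower relative to *Chrna1* and to *Chrng* in every library labelled OsxCre;Stat3fl/fl, and its ratio to the other subunits was not formed. Per *Chrna1* count there were 0.438, 0.555 and 0.598 *Chrnd* counts in OsxCre and 0.321, 0.319 and 0.215 in OsxCre;Stat3fl/fl, a log2 difference of -0.91 (standard error 0.23). Of all genes tested, 5.62% lay below and 3.7% above in the same way relative to *Chrna1*. Against its neighbour *Chrng*, *Chrnd* had 1.31, 1.34 and 1.23 counts per count in OsxCre and 0.975, 0.832 and 0.840 in OsxCre;Stat3fl/fl, a log2 difference of -0.55 (standard error 0.08). The values within each genotype were close together. Per merged exon length they lay between 0.777 and 0.848 *Chrnd* to 1 *Chrng* in OsxCre and between 0.526 and 0.616 to 1 in OsxCre;Stat3fl/fl. Which of these subunits stood higher depended on the length used, as given above. Relative to *Chrng*, 0.519% of all genes lay below and 5.93% above without overlap, and the median gene differed by 0.32. Both differences, like that of *Rapsn* to *Chrna1* at -0.35, reached the smallest exact permutation p of 0.1, and 0.267 after adjustment over the 8 ratios. That of *Rapsn* to *Chrna1* lay between -0.426 and -0.185 with single libraries left out.

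The other ratios overlapped between genotypes. The log2 differences were -0.35 for *Chrng* to *Chrna1* (exact permutation p = 0.2), -0.60 for *Chrne* to *Chrna1* (p = 0.2), 0.17 for *Chrnb1* to *Chrna1* (p = 0.4) and 0.10 for *Dok7* to *Musk* (p = 0.6). The sign of the last turned when the first library of either genotype was left out. In the same settings *Chrng* to *Chrna1* ranged from -0.492 to -0.195 and *Chrnb1* to *Chrna1* from 0.058 to 0.283, over all single libraries left out.

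The summed skeletal muscle markers were higher in each library labelled OsxCre;Stat3fl/fl than in any OsxCre library, although single muscle genes differed in direction. The 15 muscle markers, all detected, summed to between 36838 and 40413 CPM in OsxCre and to 50865, 63802 and 42880 CPM in OsxCre;Stat3fl/fl, without overlap (exact permutation p = 0.1, the smallest possible). Their fold changes were positive for 14 and negative for 1, *Mb*, with a median log2 of 0.50. Of the 15, 9 lay above without overlap, beside 10.8% of all genes, and 0 passed an adjusted p of 0.05, beside 1.26%. The second OsxCre;Stat3fl/fl library, highest for 8 of the 9 junction genes, also had the most muscle marker RNA and the third the least of its genotype. The 5 progenitor markers, with *Pax7* and *Myf5*, summed to between 126 and 140 CPM in OsxCre and between 117 and 189 CPM in OsxCre;Stat3fl/fl, with 0 called. The part of muscle content in the values of the junction genes was not tested beyond the ratios that follow.

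Relative to the summed muscle marker count of the same library, 6 of the 9 genes were lower in all 3 OsxCre;Stat3fl/fl libraries, beside 46% of all genes tested, and 0 were higher, beside 1.07%. *Chrnd* had 98.4, 126 and 105 counts per 100000 marker counts in OsxCre and 45.4, 52.1 and 35.6 in OsxCre;Stat3fl/fl, a log2 difference of -1.31 (standard error 0.19). *Chrne* had 12.1, 8.32 and 8.70 against 5.18, 4.599 and 4.35 on this scale, a difference of -1.01 (standard error 0.18). For *Chrng* the values were 75.2, 93.7 and 85.1 against 46.6, 62.7 and 42.4, a difference of -0.76 (standard error 0.19). Here *Chrng*, which overlapped per library, separated by genotype, on a scale whose median over all genes tested was -0.43.

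*Rapsn* had 52.7, 52.9 and 57.2 counts per 100000 marker counts in OsxCre and 31.8, 29.9 and 35.1 in OsxCre;Stat3fl/fl, a log2 difference of -0.75 (standard error 0.08). The alpha and beta subunits differed by less, with -0.41 for *Chrna1* and -0.24 for *Chrnb1*, near or above that median. Each of these 6 reached the smallest exact permutation p of 0.1, and 0.15 after adjustment over the 9 genes. *Musk*, *Dok7* and *Ncam1* overlapped on this scale, at -0.10, -0.003 and -0.16 (exact permutation p = 0.8, 0.9 and 0.7), and each changed sign when single libraries were left out. This scale moves all genes alike, so that *Dok7* at -0.003 stood above the median gene at -0.43.

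**Figure D3:**
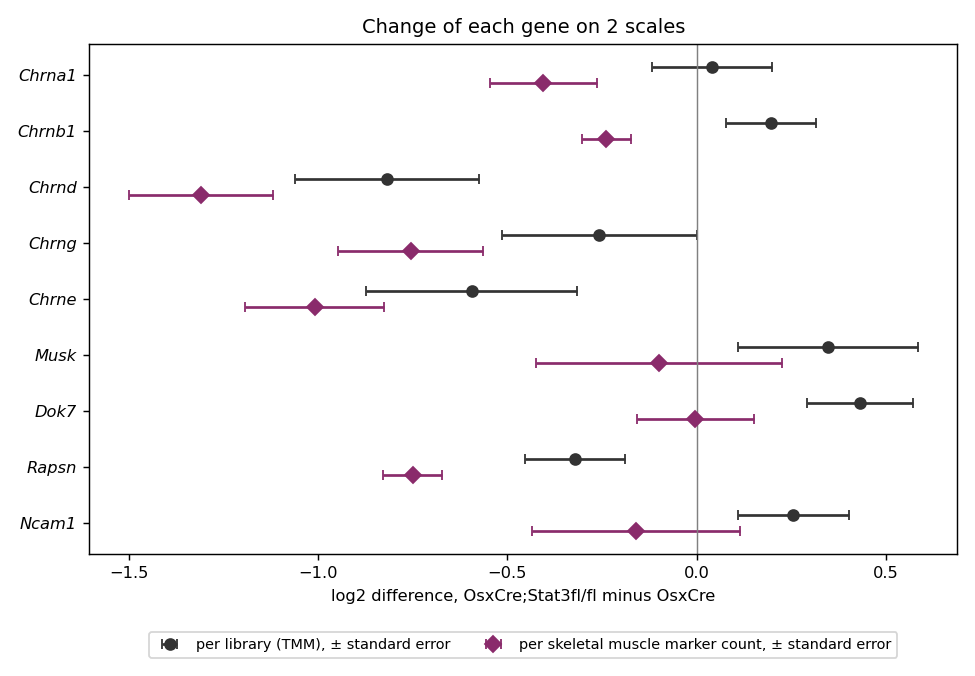
Log2 difference, OsxCre;Stat3fl/fl minus OsxCre, of each of the 9 genes per library (black, TMM-scaled, edgeR) and per skeletal muscle marker count (purple), with standard errors. The second scale moves every gene to the left, with a median of -0.43 over all 15600 genes tested, and on it *Chrnd* lies farthest left at -1.31 and *Dok7* at -0.003.

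The motor neuron and axon marker sums overlapped between genotypes, and the Schwann cell sums did not. Of the 10 motor neuron and axon markers, *Chat* and *Mnx1* were at 0 in all libraries. The list summed to 134, 432 and 140 CPM in OsxCre and to 573, 33.0 and 371 CPM in OsxCre;Stat3fl/fl, with 0 called. Of the Schwann cell list, whose sum was lower in OsxCre;Stat3fl/fl (251 to 445 against 486 to 612 CPM, exact permutation p = 0.1), 0 of the 6 genes tested were called. Whether nerve content had a part in the junction genes was not tested.

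Genes that act on the receptor from outside or below the membrane were followed in lists that, like the 9 genes, were chosen with earlier results of these data known. Among 23 synaptic organizers, 1 gene rose, the neuregulin co-receptor *Erbb2*, and 0 fell, beside 0.776% higher and 0.481% lower over all genes. *Erbb2* had 44.2, 41.2 and 47.0 CPM in OsxCre and 62.4, 58.8 and 60.6 CPM in OsxCre;Stat3fl/fl (log2 fold change 0.46, adjusted p = 0.0433). At an unadjusted p under 0.05, 2 of the 23 were higher and 3 lower, beside 8.03% and 8.34% of all genes. Without overlap, 3 lay above and 4 below, beside 10.8% and 12.2%. The 2 most counted members, the chaperone *Hsp90b1* (594 and 436 CPM, adjusted p = 0.0718) and the kinase subunit *Prkar1a* (393 and 380 CPM, adjusted p = 0.832), did not pass. The list's median was 0.03 with 10 fold changes negative and 13 positive. The agrin gene *Agrn* had means of 267 and 327 CPM (log2 fold change 0.29, adjusted p = 0.309) and its receptor *Lrp4* 126 and 97.6 CPM (-0.37, adjusted p = 0.0663). Both are named for their place ahead of *Musk* after their values were seen, and neither passed.

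Among 31 genes of the synaptic scaffold and basal lamina, 28 were tested. Of these, 1 fell and 1 rose, beside 0.481% and 0.776% of all genes. *Col13a1*, a transmembrane collagen found at the junction and in bone, fell from 40.5, 32.04 and 37.5 to 23.0, 21.2 and 20.6 CPM (log2 fold change -0.76, adjusted p = 0.0271). *Lama2*, the laminin chain of the muscle basal lamina, rose from 148, 123 and 133 to 183, 213 and 208 CPM (0.58, adjusted p = 0.0416). The most counted members *Itgb1* (636 and 693 CPM) and *Nid1* (540 and 668 CPM) had adjusted p of 0.576 and 0.317. The list's median log2 fold change was 0.07. At an unadjusted p under 0.05, 5 of the 28 were higher and 3 lower, beside 8.03% and 8.34% of all genes. The same numbers lay above and below without overlap, beside 10.8% and 12.2%. Acetylcholinesterase, *Ache*, had means of 29.2 and 38.4 CPM (adjusted p = 0.174) and its collagen tail *Colq* 19.7 and 17.1 CPM (adjusted p = 0.723), both named after their values were seen. *Dmd* and *Ank3* had almost no counts in these tables, which is no reading of their expression.

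Among 13 genes of muscle excitability 1 fell and 0 rose, beside 0.481% and 0.776% over all genes, with a median of -0.33. At an unadjusted p under 0.05, 5 were lower and 2 higher, beside 8.34% and 8.03%, and 5 lay below and 2 above without overlap, beside 12.2% and 10.8%. It was *Kcnj2*, an inward rectifier potassium channel, at 27.3, 29.8 and 31.6 CPM in OsxCre and 13.4, 18.6 and 17.7 CPM in OsxCre;Stat3fl/fl (log2 fold change -0.84, adjusted p = 0.0421). The calcium release channel *Ryr1*, among the most counted members, had means of 333 and 234 CPM (adjusted p = 0.212).

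Of 15 genes known to respond to denervation or activity, 1 rose, the embryonic myosin heavy chain *Myh3*, and 0 fell. Over all genes, 0.776% were called higher and 0.481% lower. *Myh3* went from 344, 297 and 381 to 997, 1551 and 808 CPM (log2 fold change 1.72, adjusted p = 0.0204). *Sln*, the other most counted gene of this list and an inhibitor of the calcium pump, had means of 293 and 443 CPM (adjusted p = 0.0718). *Myog*, which turns on receptor genes in muscle and was named after its values were seen, had 96.0 and 113 CPM (adjusted p = 0.551). The fold changes of the list were positive for 8 and negative for 7, with a median of 0.24. At an unadjusted p under 0.05, 7 of the 15 were higher, beside 8.03% of all genes, and 1 was lower, beside 8.34%. All 3 OsxCre;Stat3fl/fl libraries lay above all 3 OsxCre libraries for 5 of the 15, beside 10.8%.

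Among the 6 myosin heavy chains by stage, *Myh3* rose and *Myh4*, the fast chain of adult fibres, fell from 418, 410 and 476 to 30.5, 39.0 and 37.2 CPM (log2 fold change -3.61, adjusted p = 3.87e-05). *Myh1*, the most counted, had 636 and 989 CPM (adjusted p = 0.220). At an unadjusted p under 0.05, 3 of the 6 were higher and 1 lower, beside 8.03% and 8.34% of all genes. The 2 calls stand beside 0.776% called higher and 0.481% called lower over all genes. Myosin heavy chains share stretches of near-identical sequence, and how reads common to them were counted is not given in the sources used here, so their split is uncertain. The fetal to adult order of the myosins and that of the receptor subunits were not tested against each other. Of the 11 neuronal nicotinic subunits, 3 passed the filter on low counts and 0 were called (0 also at an unadjusted p under 0.05). The best counted, *Chrna4* and *Chrnb2*, had means of 6.496 and 4.67 CPM in OsxCre and 6.88 and 6.62 CPM in OsxCre;Stat3fl/fl.

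Most of the calls in these lists did not hold when 1 library was left out. *Erbb2*, *Lama2* and *Kcnj2* were called in 0 of the 6 fits on 5 libraries, with adjusted p between 0.0754 and 0.159, between 0.0602 and 0.163 and between 0.0661 and 0.148. *Col13a1* was called in 1, without OsxCre replicate 2 (0.033 to 0.136 over the 6), and *Myh3* in 2, without OsxCre replicate 3 and without OsxCre;Stat3fl/fl replicate 2 (0.0132 to 0.0967). *Myh4* was called in all 6. None of them changed direction.

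**Figure D4:**
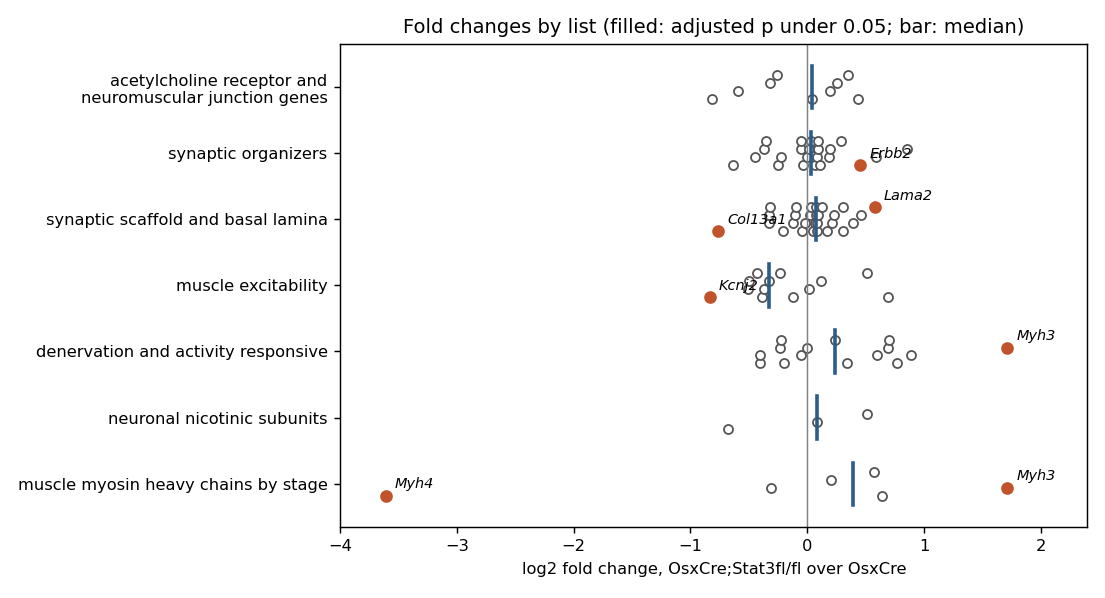
Log2 fold change, OsxCre;Stat3fl/fl over OsxCre, of every tested gene of the 9 junction genes and the 6 other lists, with filled points for an adjusted p under 0.05 and a bar at each median. The 9 junction genes hold no filled point, and medians lie between -0.33 for muscle excitability and 0.39 for the myosin heavy chains.

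The genes whose pattern over the 6 libraries came nearest to *Chrng*, by root mean square distance of centred log2 CPM, were *Kif24* (0.10), Gm16119 (0.10), LOC102634769 (0.12), *Smtnl2* (0.12) and Gm6307 (0.12). For *Chrne* they were *Dnaaf2* (0.08), *Kntc1* (0.10), *Atp6v1b1* (0.12), Gm10561 (0.12) and Gm7045 (0.12). *Chrnd* was farther from both, at 0.29 from *Chrng* and 0.34 from *Chrne*. With 6 libraries and 15600 genes this is a description only.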

How the data were processed

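RNA was extracted from parietal bone with Trizol and made into libraries with an Illumina TruSeq kit that does not mark strand. The authors deposited, for each of 6 libraries, whole-number counts per gene symbol without normalization. The submitters' processing notes name HISAT2 and GRCm38, whereas the paper's methods describe TopHat on an older mouse build; the counting program and annotation are not given in the sources used here. Of the symbols, 71.6% matched RefSeq of GRCm38.p6 and 56.4% GENCODE on NCBIM37, from which exon lengths were taken.

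The count tables were tested with edgeR 4.0.16 under R 4.3.3 (filterByExpr with minimum count 10 and total 15, TMM, quasi-likelihood test, two-sided, no block), limma 3.58.1 and DESeq2 1.42.0, and in Python 3.11.15 with scipy 1.17.1. The tests were tested on simulated counts. Standard errors of fold changes come from the F statistic. Ratios within a library had 0.5 added to both counts and were compared by exact permutation. No libraries were duplicates: within a genotype, chi-square per degree of freedom was between 8.17 and 17.1. The study describes the animals as littermates only in general terms, and the sample titles name no litter. The p-values therefore measure the spread between these libraries. The members and lists were chosen with earlier results of these data known. Genes named were the 9 members, *Stat3*, called genes and the 2 most counted genes of each list, marker genes, and the 5 genes nearest to *Chrng* and *Chrne*; others are said to be named later, and some genes the rule names are not reported here. Alternatives were other scalings, filters and tests, the replicate block, other ratio settings and leaving out each library.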

Additional observations from a re-analysis of the deposited data

How the results depend on the processing

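Of the 75 genes lower and 121 higher, library totals gave 114 lower, no scaling 5451 lower, no filter 178 and 250, DESeq2 231 and 307, the replicate block 1 and 0, and leaving out single libraries 5 to 36 and 7 to 67. Of the 9 junction genes, 0 were called, but without scaling 3 were lower (*Chrnd*, *Chrne*, *Rapsn*), beside 34.9% of all genes, and without a filter 1 and with DESeq2 1 (*Chrnd*). Without scaling the median of all genes shifted to -0.38 and the fold changes of *Chrna1*, *Chrnb1*, *Musk* and *Ncam1* turned to -0.33, -0.19, -0.021 and -0.11. *Chrna1* also turned to -0.016 on library totals and to -0.04 and -0.16 without OsxCre replicate 3 and without OsxCre;Stat3fl/fl replicate 2, and lay between -0.16 and 0.14 with single libraries left out. For synaptic organizers (0 lower, 1 higher) library totals gave 2 and 0, no scaling 10 and 0, no filter 1 and 2, DESeq2 2 and 2, the block 0 higher, and single libraries left out 0 to 1 higher. For scaffold and basal lamina (1 and 1) no scaling gave 8 and 0, DESeq2 3 higher, the block 0 and 0, and single libraries left out 0 to 1 lower and 0 higher. For excitability (1 lower) no scaling gave 8, no filter 2, DESeq2 2, the block 0 and single libraries left out 0. For denervation genes (1 higher) no scaling gave 4 lower, no filter 2 higher, DESeq2 4 higher, the block 0 and single libraries left out 0 to 1. No scaling put 1 neuronal nicotinic subunit lower. For myosins (1 higher, *Myh3*) DESeq2 gave 3, the block 0 and single libraries left out 0 to 1, while *Myh4* was called lower in every setting run. The cause of these moves was not tested.

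Per muscle marker count, *Musk* turned to 0.07 and 0.13 without OsxCre and OsxCre;Stat3fl/fl replicate 1, *Ncam1* to 0.02 and 0.03 without the second of either, and *Dok7* to values between 0.02 and 0.10 (0.02, 0.02, 0.10 and 0.04 without OsxCre replicates 1 and 3 and OsxCre;Stat3fl/fl replicates 1 and 2) and to 0.029 with the mean log2 marker count. Their ranges with single libraries left out were -0.316 to 0.127 for *Musk*, -0.325 to 0.031 for *Ncam1* and -0.147 to 0.099 for *Dok7*. *Dok7* to *Musk* turned to -0.05 and -0.03 without the first library of either genotype, in a range of -0.05 to 0.297. Same-numbered libraries did not deviate together (correlations -0.10, -0.52 and -0.09). These deviations were centred within each genotype of 3 libraries, so they cannot decide whether the numbers pair the libraries. The *Chrng* to *Chrne* difference was 0.25 within replicate numbers, as without the block. At these depths, *Chrne* rests on 16 to 49 counts a library, which limits any shift in its balance that could be seen.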
